A study of Mus musculus with 12 samples.

Results

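RNA bisulfite sequencing reads of the mitochondrial plus strand were examined at 2054 cytosines, out of 6384216 cytosines listed in any of 12 libraries. They are all cytosines listed without a variant base on the plus strand of chromosome MT downstream of the ribosomal RNAs, from the first tRNA gene after them to within the last tRNA gene before the control region, and a listing in any library sufficed. The first listed was at MT:2775 in mt-Nd1 and the last at MT:15237 in mt-Cytb (GRCm38). The reference has 3234 cytosines in this window, so 63.5% were listed. A level is the share of unconverted reads among unconverted and converted reads, in percent. It was used at a coverage of at least 20, which 1703 cytosines reached in at least 1 library. The mt-Nd2 stretch described below is an exception, with counts from 12 reads on.

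The libraries came from adult neural stem cells (NSCs) of the subventricular zone of wild-type male C57BL/6 mice of 6 to 8 weeks. NSCs were cultured for 4 days, with a medium change on day 2, in 1.5 (LF), 10 (MF) or 80 μM (HF) folic acid. Poly(A) RNA, treated with DNase, was taken from total RNA (LF, MF, HF) or from sucrose gradient fractions with polysomes after cycloheximide (pLF, pMF, pHF), with 2 biological replicates per group. Cycloheximide acts on cytosolic ribosomes, whereas mitochondrial mRNAs are read by mitochondrial ribosomes, which limits pLF, pMF and pHF as a measure of mitochondrial translation. No library holds untreated cells, and MF is the reference concentration.

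The plus-strand mRNAs are cut from a long polycistronic transcript in which tRNAs lie between the mRNAs and are excised by tRNA-processing nucleases. They encode subunits of the respiratory chain: mt-Nd1 to mt-Nd5 belong to complex I, mt-Cytb to complex III, mt-Co1 to mt-Co3 to complex IV, and mt-Atp6 and mt-Atp8 to the ATP synthase. Known mitochondrial 5-methylcytosine (m5C) is made in tRNAs by NSUN2 and NSUN3, the latter at the wobble base of tRNA-Met, and in the small ribosomal RNA by NSUN4. Mitochondrial serine and one-carbon enzymes connect folate with these RNAs, for example through a taurine modification of tRNA wobble bases.

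The following reference sequences (GRCm38, plus strand, 5′ to 3′) carry the results described below. The capitals mark the anticodon of tRNA-Met, whose first base is the NSUN3 target, in mt-Tm. In mt-Nd2 they mark a pair of cytosines with no converted read in the polysome libraries that listed it. In mt-Co1 the capital is the cytosine with the highest mean level of those measured in every library. In mt-Nd5 the capital is the cytosine with the highest mean level of that gene in LF and MF, among those with 20 or more reads in all 4 libraries.
mt-Tm, MT:3865-3887: ctatcgggccCATaccccgaaaa
mt-Nd2, MT:4501-4530: caacccatccCtcactctaCtcaacctcat
mt-Co1, MT:5998-6018: gaggaggggaCccaattctct
mt-Nd5, MT:13294-13314: catattcatcCttctcaactt

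The read counts of both libraries labelled HF are not those behind the HF sites listed with the study, and no such mismatch was found for the other 10 libraries, so these libraries are called labelled HF and are not taken as the HF measurements. The second pHF library stood apart: 42.0% of its members at a coverage of at least 20 (73 of 174) had 1 unconverted read, against 9.07% in pLF replicate 1 and 0.205% to 2.82% in the other 10. Without the libraries labelled HF, 1988 cytosines were listed, and without pHF replicate 2 all 2054 were. As to cell type, NSC markers summed to between 7178 and 11025 per 1000000 of nuclear coverage, of which Vim made up 4951 to 9425. Nes had 387 to 2791, Fabp7 156 to 1144, Slc1a3 146 to 647 and Msi1 3.33 to 114, and Sox2 had no counted cytosine in any library. Counted were cytosines listed with 20 or more reads and annotated to a single gene. A marker without a counted cytosine is therefore not shown to lack RNA. In the study's staining, all cells were positive for Nestin and Sox2. Fibroblast or mural markers summed to 1431 to 4651, of which Col1a2 made up 1203 to 4262 and Acta2 8.91 to 397. Col3a1 was at most 14.2, Pdgfra at most 5.66 and Col1a1 at most 1.59, and Dcn had no counted cytosine in any library. Oligodendrocyte lineage markers summed to 135 to 484, nearly all Olig2, astrocyte markers to 5.11 to 79.7, neuron markers to 7.01 to 55.9, microglia markers to 4.77 to 25.4 and endothelial markers to at most 0.258.

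Of the listed cytosines, 1891 lay in 9 of the 12 plus-strand mRNAs, which hold 2819 cytosines, and 0 of 141 lay in the 12 plus-strand tRNAs. Nearly every cytosine of mt-Nd1 (240 of 249), mt-Co1 (360 of 367), mt-Nd5 (470 of 495) and mt-Cytb (297 of 308) was listed. For mt-Nd2 it was 248 of 288 and for mt-Nd4 160 of 355. mt-Co3 had 53 listed, mt-Atp6 43 and mt-Co2 20, and no cytosine of mt-Co2 or mt-Atp6 was listed with 20 or more reads. mt-Atp8 (53 cytosines), mt-Nd3 (77) and mt-Nd4l (89) had none. A further 162 lay opposite minus-strand genes, 137 of them opposite mt-Nd6. The poorly listed mRNAs lay wholly or partly in MT:6390-11042, which has a copy on chromosome 1 (1:24611535-24616188) with 99.936% identity. Inside it 25.5% of the cytosines were listed (292 of 1147), and outside it 84.4% (1762 of 2087). mt-Co1 went the other way, with 120 cytosines inside the stretch and 360 of its 367 listed. The authors kept uniquely aligned reads, and the part of the copy in the missing coverage was not tested.

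Neither of the 2 kinds of tRNA cytosine known to carry m5C could be measured. The wobble cytosine of mt-Tm, MT:3875, was in 0 of 12 lists, and the 17 cytosines between anticodon stem and T arm were listed 0 times. Since a cytosine enters a list with 10 or more reads of which 1 or more is unconverted, an unlisted cytosine may lack reads or lack unconverted reads, and these cannot be told apart. The flanking mRNAs mt-Nd1 and mt-Nd2 were read in the same libraries.

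Coverage of the mRNAs differed far more between genes than between LF and MF. In mt-Co1 the median coverage of a cytosine was 4643 and 6535 in LF, compared with 7210.0 and 6588 in MF. In mt-Cytb, which encodes cytochrome b, it was 1416 and 1703 in LF against 2660.0 and 1787 in MF. mt-Nd5, the largest of the complex I subunits encoded here, had 54 and 43 in LF against 59.5 and 50 in MF. The plot of coverage by gene shows the same order in each of these 4 libraries from mt-Co1 through mt-Cytb to mt-Nd5.

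**Figure D1:**
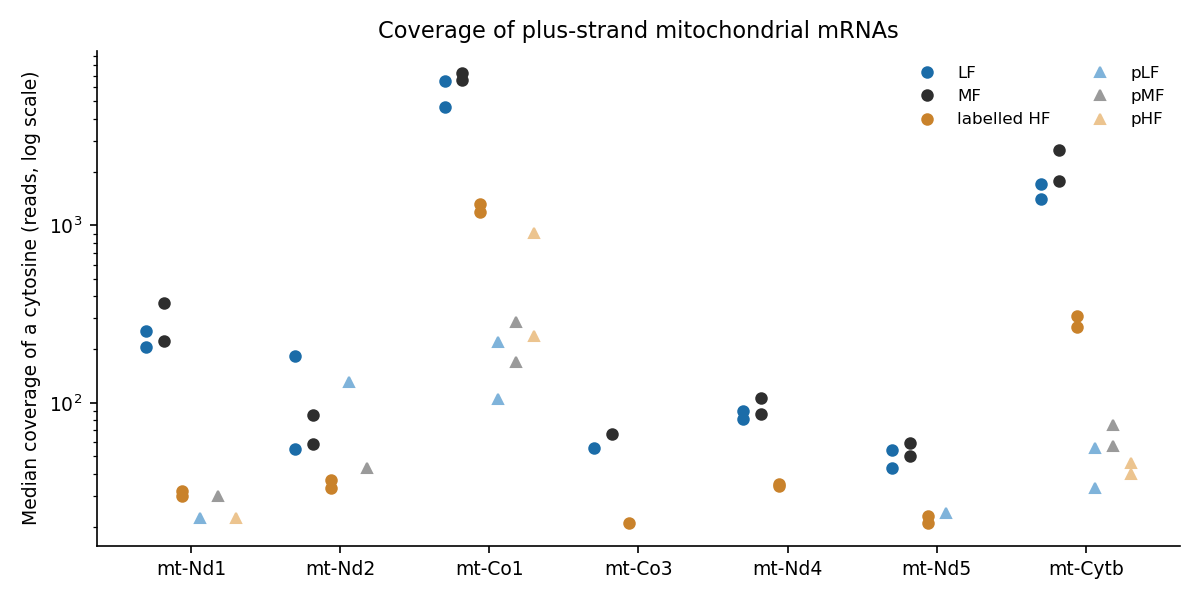
Median coverage of a cytosine (reads, log scale) for each plus-strand mitochondrial mRNA, with a point for each library that had at least 5 cytosines at a coverage of at least 20; circles are total RNA and triangles are polysome RNA. mt-Co1 lies highest in each library, from 105 reads in pLF replicate 1 to 7210.0 in MF replicate 1.

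Unconverted reads varied over a much narrower range than converted reads. At the 1441 cytosines covered by 20 or more reads in the 4 LF and MF libraries, the median number of converted reads per cytosine differed by 132-fold to 190-fold between the genes of a library, from highest to lowest, while the median number of unconverted reads differed by 3.75-fold to 5.5-fold. Over the same cytosines unconverted and converted reads rose together, with a Spearman's rho of 0.706 to 0.748 in the 4 libraries, but the level was high where coverage was low. Within mt-Co1, windows of 100 bases differed by 730-fold to 1032-fold in converted and by 6.1-fold to 14.3-fold in unconverted reads in these libraries. The window lowest in converted reads, with medians of 34 to 63, lay past base 1300, in the stretch copied on chromosome 1. Outside that stretch, median coverage was lowest in bases 1 to 100, at 333.5 to 474 reads in these libraries. It was highest in bases 501 to 600, at 34645 to 46043 reads. The part of the copy in the wider range was not tested. Spearman's rho of converted reads and level over the 1441 cytosines was -0.94 to -0.97. These correlations are given as a description, because the level contains the converted reads and cytosines of a read share it.

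**Figure D2:**
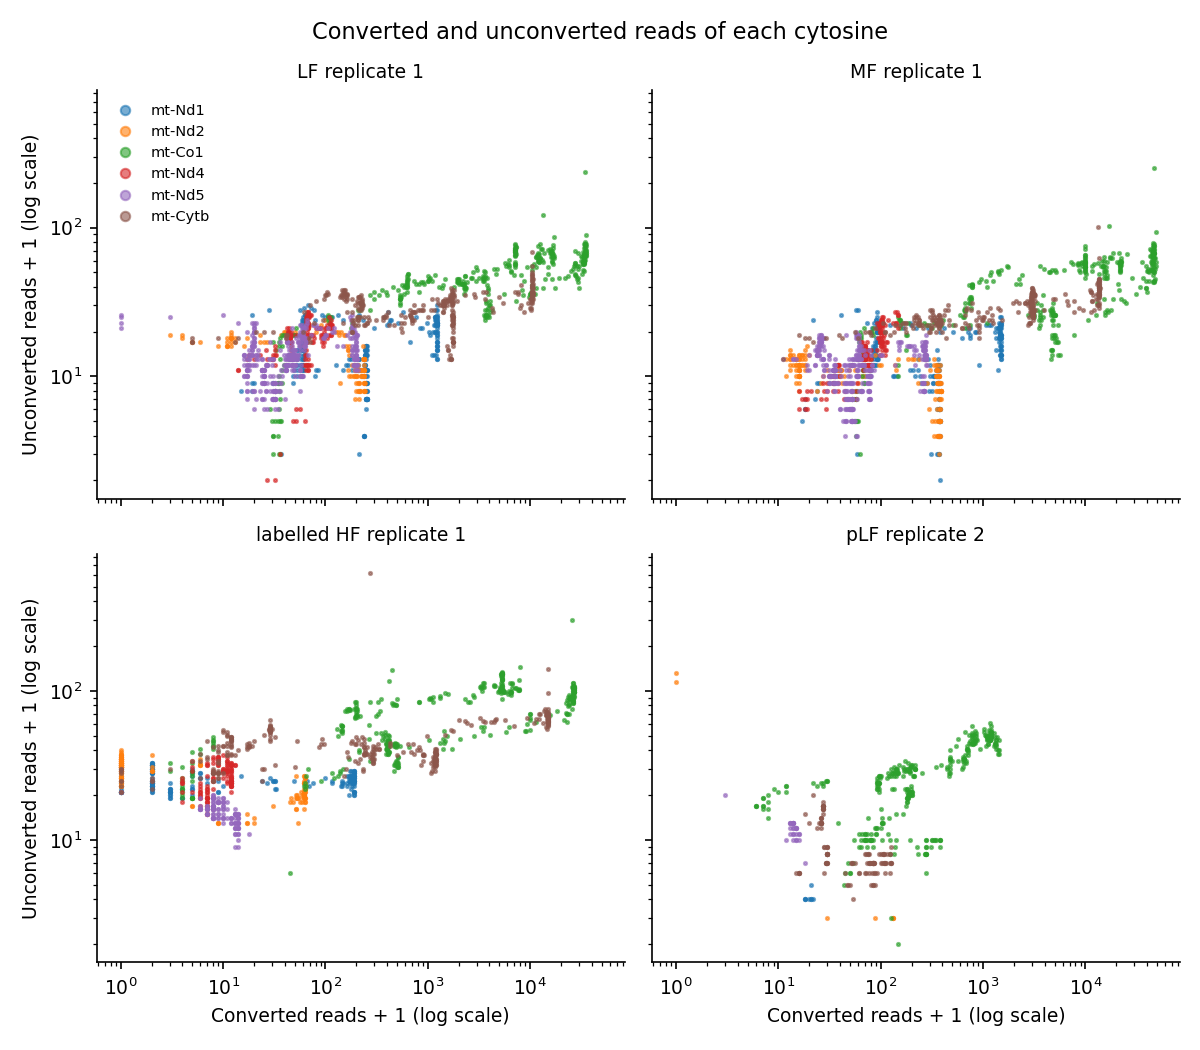
Unconverted against converted reads (each plus 1, log scales) of each cytosine in 4 libraries, coloured by gene. Converted reads span several orders of magnitude, while most unconverted counts in LF, MF and labelled HF lie in a narrow band; in pLF replicate 2 the pair of mt-Nd2 points at the left margin has 114 and 131 unconverted and 0 converted reads.

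The order of the pooled levels of the mRNAs was the same in each of the 4 libraries. mt-Nd4 had 20.7% and 21.5% in LF against 15.6% and 13.4% in MF. mt-Nd5 had 17.2% and 20.1% against 10.8% and 10.6%. In mt-Nd2 the levels were 8.13% and 7.35% against 3.05% and 6.27%. For each of these complex I subunits both LF libraries lay above both MF libraries, which is given as a description. mt-Nd1 had 3.52% and 3.18% in LF against 2.45% and 2.94% in MF. mt-Cytb had 1.06% and 0.850% against 0.715% and 0.659%. In mt-Co1 they were 0.438% and 0.395% against 0.273% and 0.354%, so here too the groups did not overlap. These mRNAs share a precursor transcript and the same 4 libraries, so they are not independent of each other. The share of all genes whose LF and MF levels do not overlap was not counted. Neighbours in the order did not overlap in LF or in MF, although mt-Nd5 with 20.1% and mt-Nd4 with 20.7% came close in LF.

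**Figure D3:**
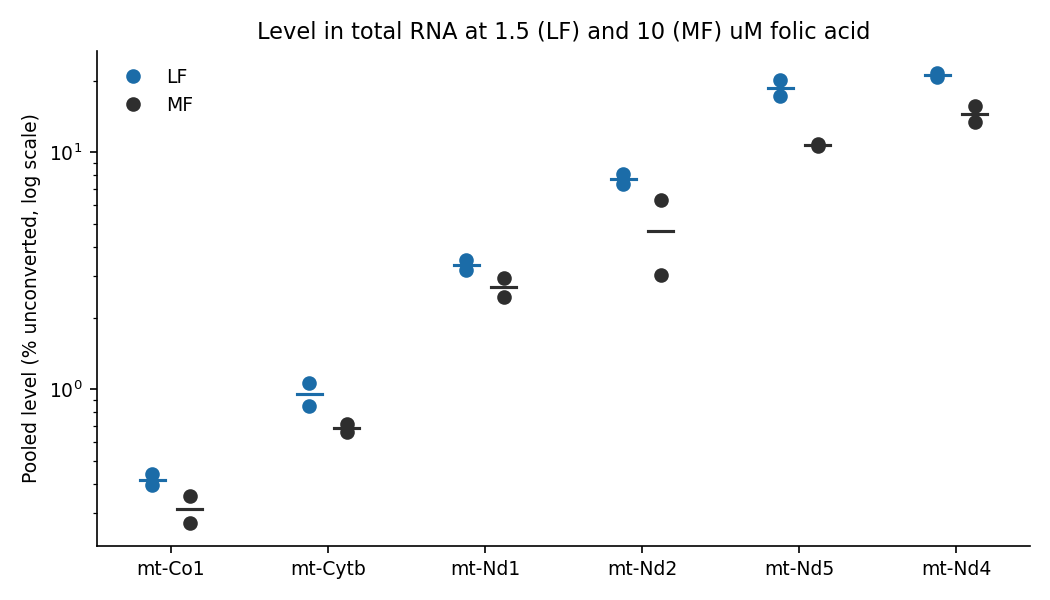
Pooled level (percent of reads unconverted, log scale) of 6 mitochondrial mRNAs in the LF and MF libraries, at the cytosines that had 20 or more reads in all 4; points are libraries and bars are group means. Both LF points lie above both MF points for every gene drawn, a description without a count over all genes beside it.

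Pooled over the 1441 cytosines, the level was 0.747% ± 0.0694 (SD, n = 2) in LF and 0.534% ± 0.0497 (SD, n = 2) in MF, a ratio of 1.40. Per unit of nuclear coverage, LF had 1.20 times the unconverted and 0.858 times the converted reads of MF. No p is given for such a pooled value, and an exact permutation test of 2 against 2 libraries cannot give a p under 0.333. Fitted over 3634 genes with limma on the libraries of total RNA, a fit added after the data were seen, no gene passed in level or coverage. mt-Nd5 differed in level by 0.93 (log2 odds, SE 0.16, limma adjusted p = 0.805) and mt-Nd4 by 0.66 (SE 0.16, limma adjusted p = 0.805). Coverage of the 6 mRNAs was lower in LF by a log2 difference between -0.40 (mt-Nd2) and -0.16 (mt-Nd4), with limma adjusted p from 0.261 to 0.426. In the same fit, the minus-strand mt-Nd6 differed by 0.09 in level and 0.10 in coverage. In bulk RNA, fewer cells of a type and less RNA per cell cannot be told apart.

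Over all 859 genes with at least 10 cytosines measured in the 12 libraries, 2 plus-strand mRNAs qualified, mt-Co1 with 96 and mt-Cytb with 39 cytosines. For LF against MF, 0 of 859 genes were called by limma in coverage (0% called, 19 with an unadjusted p under 0.05) and 0 in level (35 with an unadjusted p under 0.05). The level of mt-Co1 was higher in LF by 0.48 (log2 odds, SE 0.21, limma adjusted p = 0.994), and that of mt-Cytb by 0.59 (SE 0.33, limma adjusted p = 0.994). Taken as features by themselves, 331 members (280 in mt-Co1, 51 in mt-Cytb) were measured in the 8 LF, MF, pLF and pMF libraries among 112242 cytosines. The level of 328 was higher in LF, with a median difference of 0.48 against 0.06 over all cytosines, and limma called 0 (0 members at an unadjusted p under 0.05). Their coverage was lower in LF at 325 of 331, with a median difference of -0.22 against 0.0014 over all cytosines. limma called 0, with 50 at an unadjusted p under 0.05, against 4.93% of all cytosines. Neighbouring members share reads and are not independent.

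Single cytosines with 20 or more reads, 6 or more of them unconverted, and a level of 10% or more are described as passing the filter, a larger share of these members than of all cytosines. LF replicates had 698 and 755 of them, MF replicates 622 and 690, and the libraries labelled HF 816 and 698. These are 47.7% and 47.2% of the members at that coverage in LF, against 0.151% and 0.111% of all cytosines in the same libraries. In MF they are 40.2% and 45%, against 0.135% and 0.127%, and in labelled HF 68.3% and 66.3%, against 0.33% and 0.307%. Members made up 26.4% and 35.1% of everything that passed in LF. In the libraries of total RNA 99.8% to 100% of the passing cytosines had another within 25 bases, and in polysome RNA 66.7% to 100%. Measured members lie close together and in total RNA a large share passed, so these values do not show that passing cytosines lie in stretches. The share over all cytosines was not counted.

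In the 4 LF and MF libraries together 487 cytosines passed in every library, 212 in mt-Nd5, 117 in mt-Nd4, 72 in mt-Nd1, 31 in mt-Nd2, 29 in mt-Co1 and 26 in mt-Cytb. Over all members with 20 or more reads in both replicates, the median difference between replicates was 1.77 percentage points in LF (1444 cytosines) and 1.53 in MF (1516). These include many with low levels, and the 90th percentile of the difference was 12.6 in LF and 11.2 in MF. In at least 1 library 1383 cytosines passed, and 1048 did so without the libraries labelled HF. Among cytosines with 20 or more reads in all 4 LF and MF libraries, the highest mean level of each gene was reached at low coverage. The mt-Nd5 cytosine MT:13304 shown above, base 1563 of its gene, had levels of 92.3% and 62.5% in LF and 46.2% and 42.3% in MF, on 24, 20, 12 and 11 unconverted reads. In mt-Cytb, MT:14190 had 80.0% and 71.1% in LF and 50% and 59.4% in MF. At a coverage of 20, 1 read moves a level by 5 percentage points.

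With the reads of replicates pooled, Fisher's exact test compared 643 members between LF and MF, those that passed the filter in both replicates of either group. Of these, 142 passed in LF alone, 14 in MF alone and 487 in both, so the direction at the 142, all higher in LF, is set by how they were chosen. Among the 487 the level was higher in LF at 461, with a median difference of 7.40 percentage points. Of the 643, 264 had an unadjusted p under 0.05. All were higher in LF, but the 643 include the 142, so no direction is read from this count. After adjustment over all 1842 sites tested, 1 member was called, against 0.76% of all sites. It was MT:13288 in mt-Nd5, with 53.7% and 52.8% in LF and 24.4% and 26.3% in MF (difference 27.9 percentage points, Fisher's exact test, adjusted p = 0.0458). limma, which uses the spread between replicates, called 0 of the 643 and gave MT:13288 an adjusted p of 0.467. It had 117 of the 643 at an unadjusted p under 0.05, against 186 of all 1842 sites, the 643 included. Without LF replicate 2 Fisher's test called 19, and without LF replicate 1 or MF replicate 1 it called 0. Among the 1199 other sites the median difference was 0 percentage points, 20.7% were higher in LF and 13 were called. Sites with no difference are not counted as higher.

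Polysome RNA held little mitochondrial mRNA. The members took 0.188% and 0.212% of the summed coverage in LF and 0.252% and 0.213% in MF. The shares were 0.00483% and 0.00739% for pLF, 0.0118% and 0.0137% for pMF, and 0.0105% and 0.00392% for pHF. These sums run over the cytosines listed in each library, which differ in number. At the cytosines listed in all 12 libraries the shares were 0.0619% and 0.0719% in LF and 0.0814% and 0.0726% in MF, which left a smaller gap to the polysome libraries. There pLF had 0.00290% and 0.00394%, pMF 0.00659% and 0.00780%, and pHF 0.00596% and 0.00373%. On either set every polysome library was below every total one. mt-Co1 and mt-Cytb carried nearly all of it, and no cytosine of mt-Nd4 was listed with 20 or more reads in any polysome library, which does not show that it was uncovered there.

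Per 1000000 of nuclear coverage at cytosines measured in all 12 libraries, the coverage of mt-Co1, the catalytic subunit of complex IV, was 1778 and 2141 in LF and 2463 and 2240.3 in MF. It was 69.3 and 113 in pLF and 167 and 199 in pMF, so the fractions did not overlap. Coverage of mt-Cytb was 477 and 613 in LF and 668 and 645 in MF against 3.41 and 4.88 in pLF and 5.84 and 9.90 in pMF. limma called both lower in polysome RNA, mt-Co1 by a log2 difference of -4.07 (SE 0.15, adjusted p = 3.39e-07) and mt-Cytb by -6.61 (SE 0.17, adjusted p = 4.29e-08). Of all 859 genes 72.5% were called, 32.4% as lower, and these were the second lowest and the lowest difference. The minus-strand mt-Nd6 had -1.77 (SE 0.09, adjusted p = 8.56e-07). As features by themselves, 318 of 331 members were called lower and 0 higher, where 81.9% of all cytosines were called and 44.5% as lower.

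The loss was uneven along mt-Co1. The window of bases 501 to 600 had 218-fold less coverage in polysome than in total RNA, on means over LF and MF libraries. Bases 401 to 500 had 120-fold and bases 601 to 700 113-fold less. On the 5′ side the loss was 3.95-fold in bases 1 to 100, 8.19-fold in bases 101 to 200, 32.9-fold in bases 201 to 300 and 29.8-fold in bases 301 to 400. On the 3′ side it was 3.87-fold in bases 701 to 800, 11.8-fold in bases 801 to 900 and 11.2-fold in bases 901 to 1000. Further on it was 4.68-fold in bases 1001 to 1100, 4.32-fold in bases 1101 to 1200 and 1.60-fold in bases 1201 to 1300. In the last of these the libraries of both fractions overlapped, and from base 1101 on the windows lie in the stretch copied on chromosome 1. The highest window of mt-Co1 was 501 to 600 in each LF and MF library, 601 to 700 in labelled HF, and lay between bases 901 and 1100 in all 6 polysome libraries. In mt-Cytb the 3 windows measured, from base 201 to 500, had 49.1-fold to 90.4-fold less.

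**Figure D4:**
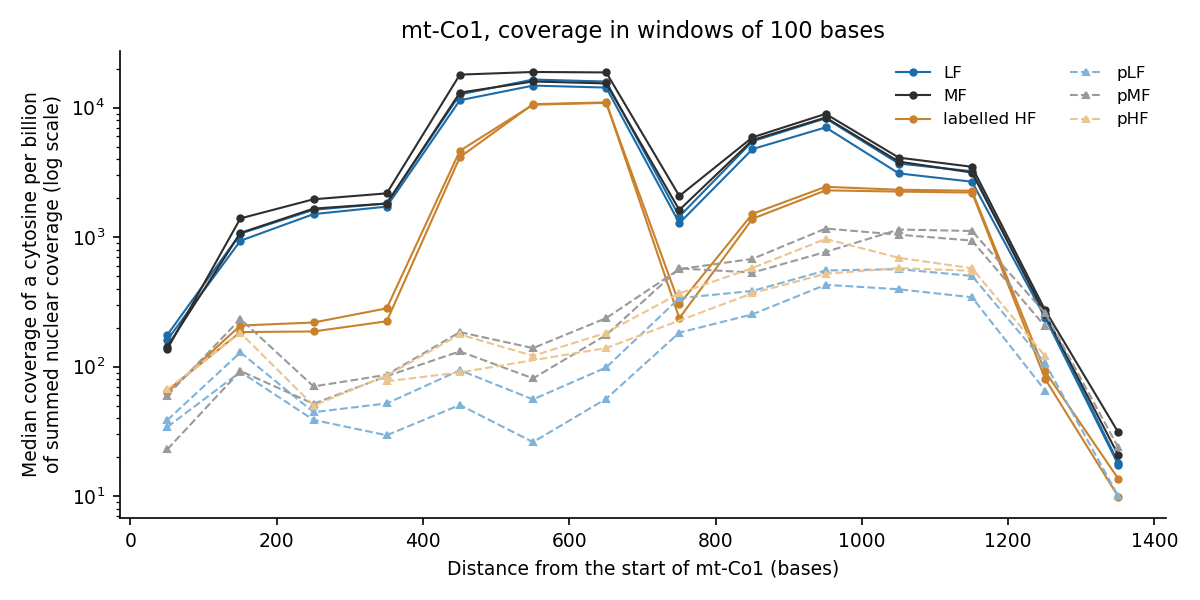
Coverage along mt-Co1 in windows of 100 bases, as the median coverage of a cytosine per 1000000000 of summed nuclear coverage (log scale), with a line for each library; solid lines are total RNA and dashed lines polysome RNA. The total RNA lines peak between bases 400 and 700, where polysome RNA is lowest relative to them, and the fractions come together from base 1201 to 1300.

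Levels in pLF and pMF were higher than in LF and MF, and converted reads fell more than unconverted reads. This did not hold in both pHF libraries, where the level of the mt-Co1 cytosines was 2.57% and 0.390%, against 1.51% and 1.39% in labelled HF. At the 135 cytosines measured in all 12 libraries, pLF had 20.5-fold fewer converted and 1.91-fold fewer unconverted reads than LF per unit of nuclear coverage. pMF had 10.9-fold fewer converted and 1.77-fold fewer unconverted reads than MF. For mt-Cytb alone, which has 39 of the 135, the converted reads were 102-fold and 58.6-fold fewer and the unconverted reads 8.15-fold and 5.22-fold fewer. The level of the 96 mt-Co1 cytosines was 5.16% and 4.36% in pLF and 2.28% and 1.62% in pMF, above the 0.491% and 0.449% of LF and the 0.305% and 0.370% of MF. That of the 39 mt-Cytb cytosines was 3.60% and 6.33% in pLF and 4.34% and 2.41% in pMF, against 0.450% and 0.404% in LF and 0.321% and 0.252% in MF. Nuclear cytosines had pooled levels of 0.140% to 0.207% in the 12 libraries.

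Because a listed cytosine has at least 1 unconverted read, the lists set a lowest possible level. For the mt-Cytb cytosines it was 2.42% and 1.09% in pLF and 1.43% and 0.855% in pMF, above every LF and MF level, so that the higher level in polysome RNA is fixed by the listing and is given without a test. In pLF replicate 1, 20 of the 39 had 1 unconverted read, and in pHF replicate 2, 30 of 39. For mt-Co1 the lowest possible level was at most 0.293%, below every LF and MF level. limma called the level of mt-Co1 higher in polysome RNA by 2.97 (log2 odds, SE 0.15, adjusted p = 2.13e-06), with 43.9% of all genes called, 42.6% as higher and 1.28% as lower, and a median of 0.35. In a fit of all 12 libraries it was 1.80 (SE 0.36, limma adjusted p = 0.00483). mt-Nd6 differed by -0.53 (SE 0.21, adjusted p = 0.0682). Of the 331 members taken by themselves 263 were called higher and 0 lower, where 21% of all cytosines were called, 19.9% as higher and 1.19% as lower. At 149 of the 331, 101 in mt-Co1 and 48 in mt-Cytb, the lowest possible level in each pLF and pMF library was above the highest LF or MF level, so these had to be higher and the count is a description.

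**Figure D5:**
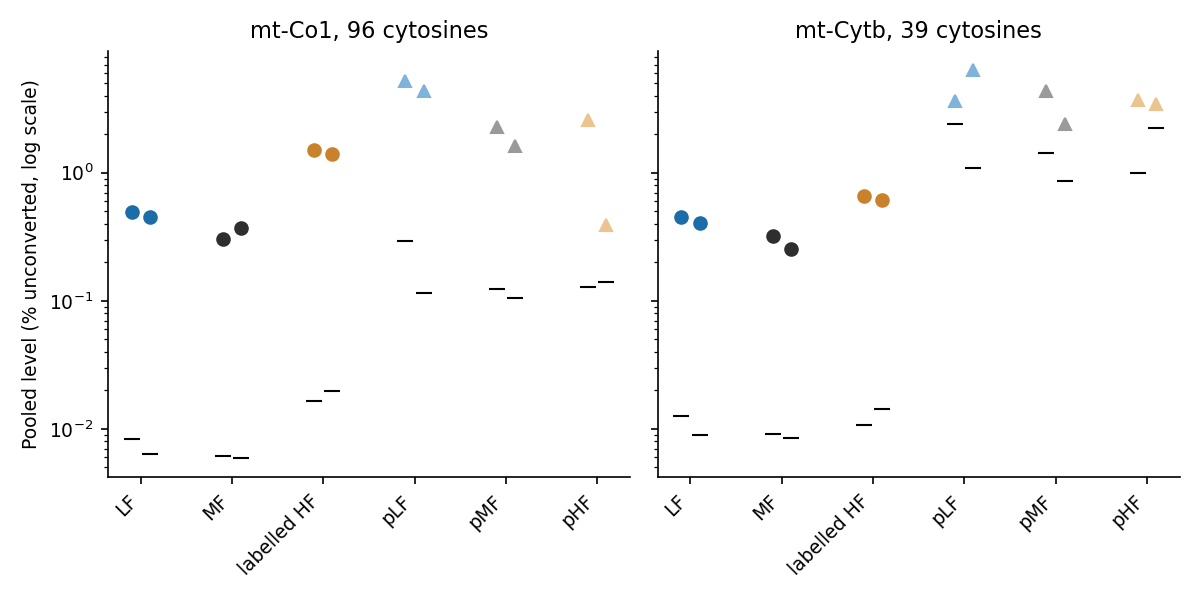
Pooled level (percent unconverted, log scale) of the mt-Co1 and mt-Cytb cytosines that had 20 or more reads in all 12 libraries, with a point for each library; black dashes give the lowest level that the lists allow. In mt-Co1 the points of pLF, pMF and pHF replicate 1 lie above all points of total RNA, and pHF replicate 2, at 0.390%, lies among those of LF and MF.

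The filter passed 119 and 219 members in pLF, 37 and 17 members in pMF, and then 51 and 3 members in pHF, or 32.7%, 45%, 8.85%, 3.67%, 11.1% and 1.72% of those at the coverage minimum, against 0.303%, 0.26%, 0.138%, 0.167%, 0.199% and 0.763% of all cytosines. No cytosine passed in all 6 polysome libraries. In pLF 96 passed in both replicates, in pMF 11 and in pHF 2.

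Site tests between fractions used members that passed in both replicates of either group. For pLF against LF all 96 tested, 66 in mt-Co1 and 30 in mt-Cytb, had passed in pLF and 89 in pLF alone, so that their direction is set by how they were chosen. They are described, with a median difference of 19 percentage points, and the 96 calls by Fisher's exact test and by limma are not read as a result (65% of all sites were called by Fisher's exact test). For example, MT:14966 in mt-Cytb had 37.0% and 47.5% in pLF and 1.98% and 1.57% in LF. The 7 that passed in both groups were also higher in pLF, by a median of 33.3 percentage points. For pMF against MF 3 of 20 were called (7 with a replicate block), where 53.6% of all sites were. All 3 were higher in pMF and in mt-Co1, among the 11 that passed in both groups, and limma called 0 of the 20 (8 at an unadjusted p under 0.05). The 3 sites, MT:6593, MT:6607 and MT:6612, were close together in the stretch copied on chromosome 1. Without pMF replicate 1 Fisher's test called 6, without pMF replicate 2 it called 0, and without either MF library it called 1. The 9 mt-Cytb sites of that comparison passed in MF alone, so that their direction is set by how they were chosen. They had pooled levels 1.69 to 8.86 percentage points lower in pMF and were not called.

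For pHF against labelled HF 29 of the 31 members tested had passed in labelled HF alone, and all 29 were lower in pHF, as their choice sets. Fisher's exact test called 11 of them, all in mt-Co1, where 65.3% of all sites were called and 31.9% as lower, and nothing is read from that count. MT:6512, in the stretch copied on chromosome 1, had 4.58% and 0.454% in pHF and 29.9% and 21.4% in labelled HF. The other 2, which passed in both groups, were the fully unconverted mt-Nd2 pair, with a difference of 0. Both groups rest on the libraries that stood apart.

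Between polysome libraries at 1.5 and 10 μM, mt-Co1 coverage was lower in pLF by a log2 difference of -1.04 (SE 0.22, limma adjusted p = 0.254), and mt-Cytb coverage by -0.83 (SE 0.24, limma adjusted p = 0.254). The mt-Co1 level was higher by 1.34 (log2 odds, SE 0.21, limma adjusted p = 0.0553), and that of mt-Cytb by 0.59 (SE 0.33, limma adjusted p = 0.701). limma called 0 of 859 genes in coverage, with 111 at an unadjusted p under 0.05, and 0 in level, with 66. Of the 331 members taken by themselves, coverage was lower in pLF at all 331, with a median difference of -0.36 against -0.02 over all cytosines. At an unadjusted p under 0.05 were 169, against 13.1% of all cytosines. The level was higher in pLF at 299, with a median difference of 1.31 against -0.02. Here 166 had an unadjusted p under 0.05, against 5.97% of all cytosines. limma called 0 in coverage and in level, and neighbouring members share reads. Without pLF replicate 2, coverage passed for mt-Co1 (-1.39, limma adjusted p = 0.00288) and mt-Cytb (-1.06, limma adjusted p = 0.0265), in a fit that called 25.7% of all genes and takes the spread of the 1 remaining pLF library from the other groups. The test of whether the LF-to-MF difference itself differed between fractions gave 0.86 for the mt-Co1 level (SE 0.30, limma adjusted p = 0.771) and -0.77 for its coverage (SE 0.31, limma adjusted p = 0.983).

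Of 63 mt-Co1 sites tested between pLF and pMF, 59 had passed in pLF alone, so that their direction, higher in pLF at all 59, is set by how they were chosen. The other 4 passed in both groups and were higher in pLF by a median of 24.6 percentage points. Fisher's exact test called these 4 and 52 of the 59, and nothing is read from the latter count (9.68% of all sites were called). limma called 0 of the 63. It had 54 of them at an unadjusted p under 0.05, against 176 of all 1074 sites. Nothing is read from the 54 either, since 59 of the 63 were chosen through pLF. The 3 called sites with the widest difference were neighbours in the stretch copied on chromosome 1. MT:6606, base 1279 of mt-Co1, had 45% and 47.9% in pLF and 16.7% and 28.6% in pMF (Fisher's exact test, adjusted p = 0.00808). MT:6609 had 45% and 48.9% against 17.2% and 31.0%, and MT:6598 had 50% and 46.2% against 17.7% and 36.7%. Without pLF replicate 2 Fisher's test called 37, and without pMF replicate 2 it called 31.

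For pHF against pMF no member was tested by site, since none that passed in both replicates of pHF or pMF was listed with 20 or more reads in all 4 libraries, and 703 other sites were. mt-Co1 differed in coverage by -0.67 (SE 0.26, limma adjusted p = 0.203) and in level by -0.95 (log2 odds, SE 0.62, limma adjusted p = 0.676). mt-Cytb differed by -0.76 (SE 0.41, limma adjusted p = 0.343) and 0.15 (SE 0.31, limma adjusted p = 0.880). In coverage 0.582% of genes were called, and in level 0 of 859 (73 at an unadjusted p under 0.05). Without pHF replicate 2 the level difference of mt-Co1 was 0.43 (limma adjusted p = 0.711), and without pHF replicate 1 it was -2.32 (limma adjusted p = 0.00154). In the latter fit 7.68% of all genes were called, 7.57% as lower, the pHF group is the library that stood apart, and its spread is taken from the other groups. Without these replicates the coverage difference of mt-Cytb was 0.07 and -1.60 (limma adjusted p = 0.0356 for the latter).

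In the libraries labelled HF, coverage of most members was lower and levels were higher than in MF. With the libraries of total RNA alone, limma called the coverage of mt-Nd1 (-2.64), mt-Nd2 (-1.94), mt-Nd4 (-1.26), mt-Co1 (-1.06) and mt-Cytb (-0.33) lower, where 84% of 2273 genes were called. The level of mt-Nd4 (3.82), mt-Nd1 (3.79), mt-Nd2 (3.64), mt-Co1 (1.82) and mt-Cytb (1.21) was called higher, where 48.3% were called. In the fit of all 12 libraries mt-Co1 coverage differed by -1.28 (SE 0.26, limma adjusted p = 0.000998) and mt-Cytb coverage by -0.19 (SE 0.41, limma adjusted p = 0.704), with 65.3% of genes called. There the levels rose by 2.12 (SE 0.62, limma adjusted p = 0.0215) and 1.16 (SE 0.31, limma adjusted p = 0.0163), with 37.5% called. The first was not called when any 1 of the 4 libraries was left out, with limma adjusted p from 0.0716 to 0.0969. The second was not called without MF replicate 2 (0.98) or either labelled HF replicate (1.10 and 1.22).

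By site, all 582 members tested had passed in labelled HF and 360 of them in labelled HF alone, so that the direction at these 360 is set by how they were chosen. The 222 that passed in both groups were all higher in labelled HF, by a median of 57.2 percentage points, and Fisher's exact test called 217 of them. It also called the 360, from which nothing is read (94.3% of all sites were called). MT:2971 in mt-Nd1 had 100% and 100% in labelled HF, on 26 and 26 reads, and 15.0% and 22.8% in MF. These comparisons concern libraries whose label is in doubt.

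Highest in mean level over LF, MF, pLF and pMF among the 135 cytosines measured in every library were 10 in mt-Co1. MT:6008, shown above and at base 681, had 6.23% and 6.84% in LF, 5.18% and 5.48% in MF, 25% and 9.75% in pLF, and 4.83% and 5.90% in pMF. Its pMF levels overlapped those of total RNA. Since levels in pLF and pMF were several times those in LF and MF, the ranking follows mostly pLF and pMF. The low values in LF and MF of other cytosines given here are no independent finding. MT:5975 had 0.168% and 0.197% in LF and 0.121% and 0.192% in MF, and 28.4% and 13.0% in pLF and 9.05% and 6.14% in pMF. It was like MT:5852, MT:5907, MT:5995, MT:5936, MT:5963 and MT:5851, which had 0.0979% to 0.253% in LF and MF and 5.18% to 28.9% in pLF and pMF. MT:6562 and MT:5577 lay between, at 3.90% to 5.65% and 0.515% to 1.25% in LF and MF. In pLF and pMF the levels of these 10 rested on 4 to 31 unconverted reads.

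In the mt-Nd2 stretch shown above, a pair of cytosines at bases 598 and 607 behaved unlike those around them. MT:4511 was unconverted in 114 of 114 reads in pLF replicate 2, 40 of 40 in pMF replicate 2, and 66 of 66 and 31 of 31 in pHF. MT:4520 was unconverted in 14 of 14 and 131 of 131 reads in pLF, 43 of 43 in pMF replicate 2, and 67 of 67 and 31 of 31 in pHF. The 3 cytosines between them, MT:4513, MT:4515 and MT:4517, had 2 unconverted of 132 or 133 reads in pLF replicate 2 and 1 of 43 in pMF replicate 2. So 0 converted reads were seen at the pair wherever polysome RNA listed it, next to nearly complete conversion in the 2 polysome libraries that listed the cytosines between. In labelled HF the pair had 39 of 39 and 24 of 24 reads unconverted at MT:4511, and 37 of 37 and 24 of 24 at MT:4520. In LF and MF levels at the pair were 50% to 69.2%, on 12 to 31 reads, and those at the 3 cytosines between were 44% to 66.7%. The latter had 47.8% to 87.2% in labelled HF.

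Sequence features were compared within libraries, as a description. In mt-Co1, RNAfold-paired cytosines had a level of 0.419% ± 0.0799 (SD, n = 4) in LF and MF and unpaired ones 0.349% ± 0.0675 (SD, n = 4). The difference was positive in each LF and MF library, by 0.0558 to 0.0823 percentage points, and in both labelled HF libraries, by 0.404 and 0.409. It was negative in each pLF and pMF library, from -0.546 to -0.210, and -0.0843 and 0.0436 in pHF. In mt-Cytb it was negative in LF and MF, from -0.186 to -0.0999, and in pLF and pMF, from -11.8 to -0.589, so that no direction held across genes and fractions. By the next base the mt-Co1 level in LF and MF was 0.429% before G, 0.368% before A, 0.358% before T and 0.351% before C. At codon positions 1, 2 and 3 it was 0.362%, 0.326% and 0.417%. Position 3 exceeded position 2 in each LF and MF library, by 0.0784 to 0.117 percentage points in mt-Co1 and by 0.0675 to 0.131 in mt-Cytb. In mt-Nd1 it did not, with means of 2.98% at position 3 and 3.01% at position 2, and position 3 lower in 3 of the 4 libraries. G exceeded C as next base in these libraries in mt-Co1, by 0.0531 to 0.102, and the order was turned in mt-Cytb, from -0.215 to -0.183.

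Nuclear genes that process, modify or transcribe mitochondrial RNA, or that carry its one-carbon supply, were followed by their coverage. Of a list of 38, 17 had enough cytosines when all listed ones were used, and these sums also move with which cytosines a library lists. Of the genes named here, Shmt2 alone had a value at the cytosines measured in all 12 libraries. Polysome RNA had higher coverage of 10, including the folate enzymes Mthfd2 (4.46) and Shmt2 (3.60, and 2.60 at the cytosines measured in all 12 libraries), the tRNA 3′ nuclease Elac2 (1.51) and the tRNA methyltransferase Nsun2 (0.75, all log2 differences called by limma). 1 was lower, the mitochondrial RNA polymerase Polrmt (-1.62), where 54.8% of all genes were called, 22.8% as higher and 32% as lower. For LF against MF limma called 0 of the 17 (0 at an unadjusted p under 0.05), and between pLF and pMF 0 (2 at an unadjusted p under 0.05). For labelled HF against MF limma called 4, where 16.2% of all genes were called, 8.97% as higher and 7.21% as lower. Shmt2 (2.55), Mthfd2 (2.34) and the helicase Supv3l1 (1.52) were higher and the mitochondrial transcription factor Tfam (-2.71) lower. Nsun3 and Nsun4 did not have enough cytosines.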

How the data were processed

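RNA BS-seq was done on 12 libraries, 2 biological replicates of 6 groups taken from the sample labels. Per the methods, reads were trimmed (fastp), mapped to mm10 keeping unique alignments (meRanGh), and cytosines were listed by meRanCall, before the 3C, signal/noise, FDR and structure filters. For each cytosine, the authors deposited raw counts of covering, unconverted and variant reads. They also deposited a fraction, unconverted over unconverted plus converted reads, and recomputing this fraction gave 0 mismatches. Summed coverage was 1186213013 to 2857966129 per library. Genes came from GENCODE and were matched to GRCm38, whose sequence had 0 mismatches with the listed contexts.

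Members, gene lists and named cytosines were chosen with earlier results of these data known. Named were all plus-strand genes, the highest cytosines and, per site comparison, the 3 called members with the largest non-overlapping difference. Gene coverage (log2 of the sum per 1000000 of nuclear coverage plus 0.5) and level (log2 odds, pseudocount 0.5) were fitted over all genes with limma 3.58.1 in R 4.3.3. Fold changes on these scales understate changes of low values. The LF, MF, pLF and pMF libraries shared a fit, and contrasts with labelled HF or pHF used all 12. Sites were tested with two-sided Fisher's exact tests on pooled reads (scipy 1.17.1), with the Benjamini-Hochberg adjustment over all sites and a threshold of 0.05. Pooling has no error term between replicates. Structures were folded with RNAfold 2.7.2 at 70 °C with a maximum span of 150, and the nuclear copy was found with blastn 2.17.0. Other software was Python 3.11.15, numpy 2.4.6, pandas 2.3.3 and matplotlib 3.10.9. Tests were tried on simulated data. The p-values of limma measure the spread between these samples, and those of Fisher's exact test do not. PCR reads without molecular identifiers are not independent molecules. Alternatives were other minimums, scalings, pseudocounts, fits, a replicate block and leaving out each replicate. Reads and the 3C filter were not used here.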

Additional observations from a re-analysis of the deposited data

Results flagged for a closer look

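In 2 mt-Co1 cytosines, the only members tested both for pLF against LF and for pHF against labelled HF, the fractions differed in opposite directions. MT:6562, in the stretch copied on chromosome 1, had 16.9% and 11.9% in pLF against 5.65% and 4.17% in LF. It had 6.83% and 0.361% in pHF against 27.2% and 21.1% in labelled HF. MT:5577 had 17.6% and 13.0% in pLF against 1.25% and 1.05% in LF, and 7.14% and 1.37% in pHF against 12.1% and 10.1% in labelled HF. Both entered these tests by passing the 10% level minimum in both pLF and in both labelled HF libraries and not in LF or pHF, so each direction restates how the cytosines were chosen. The difference between these contrasts was not tested, and it rests on the libraries labelled HF and on pHF replicate 2, which had 1 unconverted read at each of these cytosines.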

How the results depend on the processing

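Of the values recomputed under alternatives, 228 stayed on their side of the threshold or within the spread between replicates, 28 lost their call or shrank, 10 gained one or grew, 7 others moved and 3 reversed. The coverage differences of mt-Co1 and mt-Cytb and the level difference of mt-Co1 between polysome and total RNA stayed called under all alternatives run, also with any 1 replicate left out, but the fit of all 12 libraries gave a level difference of 1.80 for mt-Co1 (limma adjusted p = 0.00483) in place of 2.97 and called 149 genes in level in place of 377. For labelled HF against MF, all listed cytosines gave -1.09 for mt-Co1 coverage (limma adjusted p = 0.111) and 1.81 for its level, neither called. For mt-Cytb, coverage was called in total RNA alone (-0.33). Leaving out a replicate gave mt-Co1 levels from 1.98 to 2.27 and mt-Cytb levels from 0.98 to 1.34. For pLF against pMF a pseudocount of 5 made the mt-Co1 level pass (1.34, limma adjusted p = 0.0419), and leaving out a replicate gave coverage from -1.39 to -0.69 (mt-Co1) and -1.18 to -0.47 (mt-Cytb). For pHF against pMF it gave mt-Cytb coverage from -1.60 to 0.072, mt-Co1 level from -2.32 to 0.43 and mt-Cytb level from -0.29 to 0.59. Most members tested by site between other groups were chosen through the group in which they are high, so that counts of calls kept there show no stability. By site, LF against MF had 0 calls with limma, 0 at a level of at least 0.2 and 0 to 19 without a replicate. A coverage of at least 50 left 244 of 244 called for labelled HF against MF, 37 of 37 for pLF against pMF, 37 of 37 for pLF against LF and 0 for pMF against MF, where fewer sites were tested. For pLF against pMF limma called 0, a level of at least 0.2 left 5 of 10, and leaving out a replicate left 31 to 52. A level of at least 0.2 left 43 of 43 for pLF against LF, 1 for pMF against MF and 4 of 6 for pHF against labelled HF. For pMF against MF limma called 0 and leaving out a replicate gave 0 to 6. As medians over libraries, the pooled level was 1.61%, and 2.33% at a coverage of at least 10. The share of coverage was 0.0664%, and 0.0236% at cytosines common to all libraries. Cytosines passing the filter numbered 420.5, against 661, 193.5 and 108.5 at a coverage of at least 10, 50 and 100 and 0 at common cytosines. The medians 0.0664% and 420.5 fall between the fractions and describe neither. Polysome libraries had shares up to 0.0137% and up to 219 passing cytosines, and libraries of total RNA at least 0.119% and 622. Paired minus unpaired was 0.0497 percentage points, and 0.0159 when folded at 37 °C, medians over libraries with differences of opposite sign, which show nothing of stability. The cause of these changes was not tested. Deviations of equal replicate numbers correlated between groups from -0.43 to 0.25 for coverage, the latter between LF and pLF, and from -0.10 to 0.07 for level. For coverage 5 of 15 pairs of groups were over 0.1. These values do not settle whether equal numbers are paired cultures. The replicate block changed 1 result, pMF against MF by site, from 3 to 7 calls. Counts of genes called ranged over alternatives from 547 to 4093 (coverage) and 149 to 4583 (level) for polysome against total, where 623 and 377 were called. For labelled HF against MF they ranged from 467 to 1909 and 121 to 2011 (561 and 322 called), for pLF against pMF from 0 to 221 and 0 to 2 (0 and 0), and for pHF against pMF from 0 to 11 and 0 to 66 (5 and 0).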

Other observations

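Levels over 90% were found in 9 of 12 libraries. Labelled HF replicate 1 had 166 such cytosines, among them 81 in mt-Nd2 and 65 in mt-Nd1, and replicate 2 had 85, among them 50 in mt-Nd1. LF replicate 2 had 42, of which 30 lay in mt-Nd5 and 12 opposite mt-Nd6, with a median coverage of 21 and 20.5. LF replicate 1 had 5, all in mt-Nd5, MF replicate 2 had 2 in mt-Nd2, and MF replicate 1 had 0. In polysome RNA there were 3 in pLF replicate 2, 2 in pMF replicate 2 and 2 and 3 in pHF, with the mt-Nd2 pair MT:4511 and MT:4520 in each of these libraries, and 0 in pLF replicate 1 and pMF replicate 1.

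On the minus strand of chromosome MT the pooled level was 0.350% to 0.544% in LF and MF and 0.201% to 0.259% in pLF, pMF and pHF replicate 1. On the plus strand it was 0.512% to 0.801% in LF and MF and 2.65% to 7.44% in the same polysome libraries. In pHF replicate 2 the order was turned, with 0.746% on the minus and 0.692% on the plus strand. Labelled HF had 0.638% and 0.958% on the minus strand and 1.68% and 1.53% on the plus strand. The plus-strand ribosomal RNAs had 0.293% to 0.377% in LF and MF and 2.48% in both libraries labelled HF. In polysome RNA they had a listed cytosine at the coverage minimum in pMF replicate 2 (2.63%) and pHF replicate 2 (2.41%), on few reads and with most sites at the single unconverted read that listing needs, so that these values are not compared, and the other polysome libraries had none.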
